A study of Mus musculus with 8 samples.

Results

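The genes described here are 10 antioxidant genes, Gclc, Gclm, Gsr, Nqo1, Hmox1, Txnrd1, Srxn1, Gpx4, Sod1 and Sod2, in the brains of mice with a mutant Pus1 gene. They were chosen by name, as genes of the glutathione system and of the NRF2 response together with both intracellular superoxide dismutases, out of 20887 named genes on the arrays. Total RNA came from frozen brain, cut as a cross section, of 4 mice with a homozygous mutant Pus1 gene and 4 wild-type mice, all 14 to 16 weeks old and of a C57BL/6J background reached by 5 generations of backcrossing. No mouse of either genotype received a treatment, and the labels do not say how the Pus1 gene was altered. A mutant and a wild type of equal sex and number were hybridised together on each of 4 two-colour Agilent arrays, and form a pair. The females make up pairs 1 and 2, the males pairs 3 and 4, and the mutant carried Cy5 in pairs 1 and 3 and Cy3 in pairs 2 and 4. Both dye orientations were therefore present in each sex.

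Pus1 encodes pseudouridine synthase 1, which turns uridine into its isomer pseudouridine in tRNAs of the cytosol and of mitochondria, among other RNAs. NRF2 (gene Nfe2l2) is a transcription factor held at a low level by KEAP1, which targets it for degradation; oxidants and electrophiles modify KEAP1, and NRF2 then enters the nucleus and pairs with small MAF proteins on antioxidant response elements. Its best known targets make glutathione, regenerate reduced thioredoxin and glutathione, and detoxify quinones and haem. In brain this response is known mainly from astrocytes, which supply neurons with glutathione precursors. Glutathione peroxidase 4 and the superoxide dismutases act on lipid peroxides and on superoxide, and are expressed in most cells without such a stimulus.

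The 10 genes were read by 12 probes, since Gsr and Hmox1 had 2 each, and all 12 were well above background in 4 of 4 mutants and 4 of 4 wild types. None was saturated. Of all probes on the array, 56.3% to 67.7% were well above background in any one mouse. The probe for Pus1 checked the labels: its level was 7.09, 7.16, 6.75 and 7.04 in mutants 1 to 4, against 9.16, 10.10, 9.36 and 9.79 in wild types 1 to 4 (normalized log2 intensity). The groups did not overlap, and the log2 ratio of mutant over wild type was -2.59 ± 0.38 (SD, n = 4 pairs; limma, adjusted p = 0.0364). That adjusted p became 0.199 with the scanner software's ratio, 0.893 without replicate 1 and 1.00 without replicate 3. Brain was checked through markers of its cells: all 6 genes each for neurons, astrocytes and microglia and all 5 for oligodendrocytes were well above background in all 8 mice. The liver and skeletal muscle lists were mixed. Alb and Fgb of liver and Ckm of muscle were well above background in 0 mice. In all 8 mice, 2 of the 5 liver genes and 1 of the 4 muscle genes were so. Among those liver genes was Ttr, which is also on the choroid plexus list. Pair 2 stood apart, with an SD of log2 ratios over all probes of 0.633, against 0.279 in pair 1, 0.395 in pair 3 and 0.329 in pair 4.

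No antioxidant gene passed the test. In limma with Benjamini-Hochberg adjustment over all probes, 0 of the 12 probes had an adjusted p under 0.05, where 0.00901% of the 33300 tested probes did (0.003% as higher in the mutant). At an unadjusted p under 0.05 stood 1 of the 12, beside 6.05% of all probes, and it was higher in the mutant, beside 3.04%. That probe was one of 2 for Hmox1, the haem oxygenase that NRF2 induces, with a level 1.39-fold that of wild type and an adjusted p of 0.720. The mean log2 ratios of the 10 genes, each by its brightest probe, had a median of 0.06, against 0.01 over the 15283 tested genes. Their median absolute log2 ratio was 0.0669, against 0.106 over all tested genes.

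The intervals bound what these arrays left room for. The 95% interval of the log2 ratio lay inside 0.5 on either side of 0 for 10 of the 12 probes. The exceptions were the brighter Hmox1 probe, with an upper bound of 0.74, and the Nqo1 probe, with an upper bound of 0.51. These p-values and intervals rest on 4 pairs and 2 residual degrees of freedom. To these limma adds 3.65 prior degrees of freedom, drawing each probe's variance toward a value estimated over all tested probes.

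**Figure D1:**
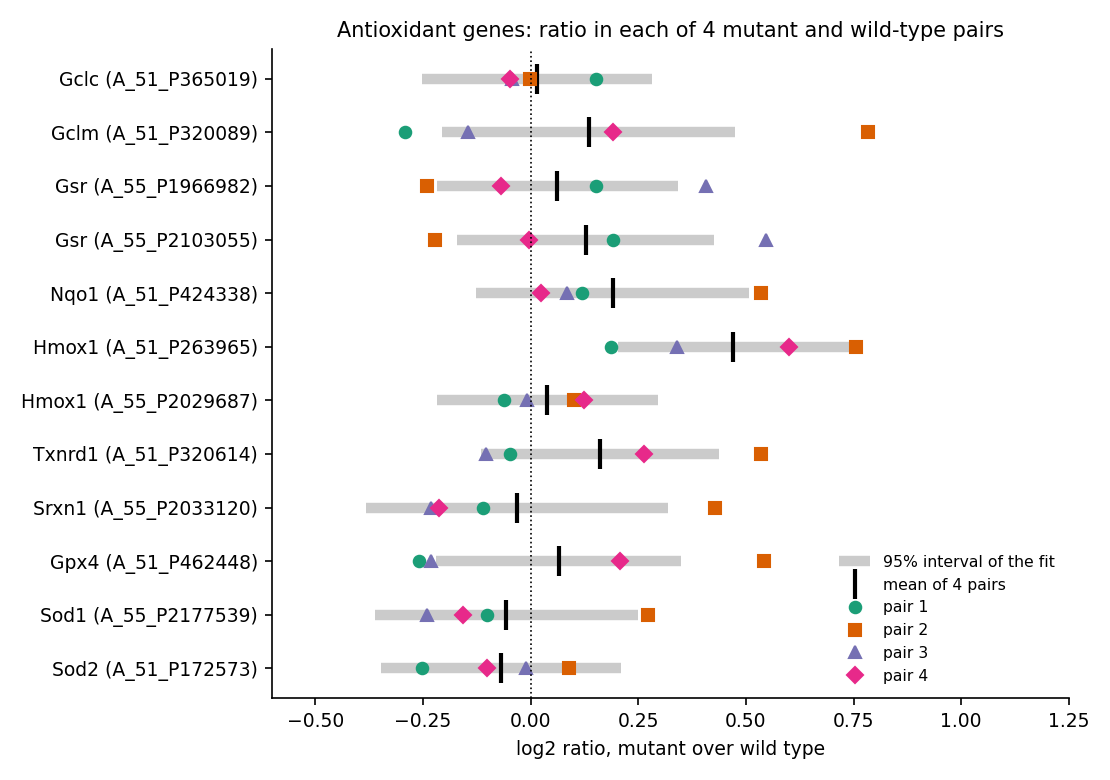
Log2 ratio of mutant over wild type (horizontal axis) for the 12 probes of the 10 antioxidant genes (rows), 1 symbol per pair, with the fitted mean and its 95% interval. The brighter Hmox1 probe lies above 0 in all 4 pairs, the Nqo1 probe does too, and the pair 2 ratio is the highest of the 4 for 8 probes.

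Antioxidant response elements were looked for in RefSeq promoters (assembly GRCm38.p6, 250 bases before to 50 after each transcript start), because these are the letters through which NRF2 is known to act. The motif TGACNNNGC was searched on both strands, and 7 of the 10 genes had a promoter in the table; Gclc, Gsr and Hmox1 were not among them. It was found for 4 of the 7 genes, while 14.0% of 27025 genes with a promoter held it. A gene counted if any of its promoters held the motif. Counted by promoter, 4 of the 12 of these genes held it, beside 12.4% of 32851. The 4 matches are shown on the strand of the gene, in capitals, where each reads as the reverse complement of the motif. A match is a run of letters and was not tested as a binding site.
Srxn1, chr2:152105542-152105570, plus strand, match 28 bases after the start: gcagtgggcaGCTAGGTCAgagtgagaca
Gclm, chr3:122245393-122245461, plus strand, match 134 bases before the start: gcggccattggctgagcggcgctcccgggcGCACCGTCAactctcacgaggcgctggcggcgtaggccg
Txnrd1, chr10:82859084-82859152, plus strand, match 92 bases before the start of 1 of its 3 promoters: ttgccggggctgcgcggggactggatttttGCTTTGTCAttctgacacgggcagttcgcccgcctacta
Sod1, chr16:90220676-90220744, plus strand, match 56 bases before the start: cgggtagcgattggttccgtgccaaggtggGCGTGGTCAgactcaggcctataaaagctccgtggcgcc
The genes with a match did not share a direction in mutant brain: mean log2 ratios were 0.13 for Gclm, 0.16 for Txnrd1, -0.03 for Srxn1 and -0.06 for Sod1, and none passed the test.

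Glutathione synthesis begins with glutamate-cysteine ligase, whose catalytic subunit is encoded by Gclc (chromosome 9, NM_010295) and whose modifier subunit, which raises the activity of the enzyme, is encoded by Gclm (chromosome 3). Gclc had levels of 12.29, 12.16, 12.13 and 12.22 in mutants 1 to 4, against 12.13, 12.16, 12.18 and 12.27 in wild types 1 to 4 (normalized log2 intensity, as are all levels below). The groups overlapped throughout, and the log2 ratio was 0.01 ± 0.09 (SD, n = 4 pairs), with a 95% interval of 0.84-fold to 1.22-fold and an adjusted p of 0.989 in limma. Gclc was the steadiest of the genes between pairs.

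Gclm was the least steady. Its levels were 9.26, 10.40, 9.46 and 9.73 in mutants 1 to 4, against 9.55, 9.61, 9.60 and 9.54 in wild types 1 to 4. The wild types lay within a narrow band, while mutants 2 and 4 lay above it and mutants 1 and 3 below it. The log2 ratio averaged 0.13 ± 0.48 (SD, n = 4 pairs; limma, adjusted p = 0.896). By orientation it averaged -0.22 over pairs 1 and 3, with the mutant in Cy5, and 0.49 over pairs 2 and 4, with the mutant in Cy3 (dye term in limma, adjusted p = 0.383). In the ratios, a dye effect and another difference between these sets of pairs cannot be told apart.

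Gsr (chromosome 8) encodes glutathione reductase, which returns oxidized glutathione to its reduced form with NADPH. Its brighter probe gave levels of 11.45, 11.24, 11.87 and 11.35 in mutants 1 to 4, against 11.29, 11.49, 11.46 and 11.42 in wild types 1 to 4. Mutant 3 was the highest of the 8 and mutant 2 the lowest, and the log2 ratio averaged 0.06 ± 0.28 (SD, n = 4 pairs; limma, adjusted p = 0.948). The second probe had log2 ratios of 0.19, -0.22, 0.55 and -0.00463 in pairs 1 to 4, a mean of 0.13 ± 0.33 (SD; limma, adjusted p = 0.888). Both Gsr probes thus put pairs 1 and 3 above pairs 2 and 4, opposite to Gclm.

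Txnrd1 and Srxn1 act in the thioredoxin arm. Txnrd1 (chromosome 10) encodes the cytosolic thioredoxin reductase, a selenoprotein, and Srxn1 (chromosome 2) encodes sulfiredoxin, which rescues overoxidized peroxiredoxins. Txnrd1 had levels of 12.18, 12.45, 11.99 and 12.31 in mutants 1 to 4, against 12.23, 11.92, 12.09 and 12.04 in wild types 1 to 4. Mutants 2 and 4 were the highest of the 8, mutants 1 and 3 lay within the wild-type range, and the log2 ratio averaged 0.16 ± 0.30 (SD, n = 4 pairs; limma, adjusted p = 0.857). Srxn1 had levels of 13.23, 13.79, 13.11 and 13.36 in mutants 1 to 4, against 13.35, 13.36, 13.34 and 13.58 in wild types 1 to 4. Only mutant 2 exceeded its partner, and the log2 ratio averaged -0.03 ± 0.31 (SD, n = 4 pairs; limma, adjusted p = 0.983).

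Nqo1 (chromosome 8) encodes NAD(P)H quinone dehydrogenase 1, which reduces quinones and is a standard readout of NRF2 activity. Its levels were 8.18, 8.30, 8.08 and 7.88 in mutants 1 to 4, against 8.06, 7.76, 8.0 and 7.86 in wild types 1 to 4. Each mutant lay above its partner, by log2 ratios of 0.12, 0.53, 0.08 and 0.02, yet mutant 4 lay below wild types 1 and 3. The mean was 0.19 ± 0.23 (SD, n = 4 pairs), or 1.14-fold with a 95% interval of 0.92-fold to 1.42-fold, and did not pass the test (limma, adjusted p = 0.852). Without pair 2 the fitted log2 ratio, which weighs both dye orientations equally, was 0.06. The Nqo1 probe was dim, with raw spot medians of 156 to 442.

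Hmox1 (chromosome 8) encodes haem oxygenase 1, which splits haem into biliverdin, iron and carbon monoxide and is induced through NRF2 and by other stress signals. Its brighter probe had levels of 9.33, 10.10, 9.39 and 9.72 in mutants 1 to 4, against 9.14, 9.35, 9.05 and 9.12 in wild types 1 to 4. The groups overlapped by one mouse, since mutant 1 lay just below wild type 2. Means were 9.63 ± 0.36 in mutants and 9.16 ± 0.13 in wild types (SD, n = 4 each). Each mutant lay above its own partner, by log2 ratios of 0.19, 0.76, 0.34 and 0.60, a mean of 0.47 ± 0.26 or 1.39-fold, with a 95% interval of 1.15-fold to 1.67-fold. This was the largest mean ratio among the 12 probes, but it did not pass the test across all probes (limma, adjusted p = 0.720). An exact sign-flip permutation test over the 4 pairs gave p = 0.125, two-sided, which is the smallest that 4 pairs allow. Over 15 other processing settings the log2 ratio lay between 0.25 and 0.51 and the adjusted p between 0.0960 and 1.00.

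The second Hmox1 probe did not give the same result. Its log2 ratios were -0.06, 0.10, -0.00817 and 0.12 in pairs 1 to 4, a mean of 0.04 ± 0.09 (SD; limma, adjusted p = 0.966). Its levels, 7.48, 7.87, 7.71 and 7.85 in mutants 1 to 4, overlapped with 7.54, 7.77, 7.72 and 7.73 in wild types 1 to 4. It was the dimmer of the 2, with raw spot medians of 122 to 373, and its 95% interval of 0.86-fold to 1.23-fold overlaps that of the brighter probe only between 1.15-fold and 1.23-fold. The mean over both probes was a log2 ratio of 0.25. Why the 2 probes differ was not tested.

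Gpx4 (chromosome 10) encodes the selenoprotein that reduces lipid hydroperoxides and holds back ferroptosis. It had levels of 15.35, 15.93, 15.37 and 15.58 in mutants 1 to 4, against 15.61, 15.39, 15.60 and 15.37 in wild types 1 to 4. Mutants 1 and 3 lay below their partners, mutant 2 was the highest of the 8, and the log2 ratio averaged 0.06 ± 0.38 (SD, n = 4 pairs; limma, adjusted p = 0.945). Its ratio was lower in both pairs with the mutant in Cy5 than in both with it in Cy3, but the dye term did not pass either (limma, adjusted p = 0.374).

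Sod1 (chromosome 16) encodes the copper-zinc superoxide dismutase of the cytosol and Sod2 (chromosome 17) the manganese enzyme of the mitochondrial matrix. Sod1 had levels of 15.48, 16.03, 15.17 and 15.38 in mutants 1 to 4, against 15.58, 15.76, 15.42 and 15.53 in wild types 1 to 4, and a log2 ratio of -0.06 ± 0.23 (SD, n = 4 pairs; limma, adjusted p = 0.958). Sod2 had levels of 14.36, 14.71, 14.46 and 14.49 in mutants 1 to 4, against 14.61, 14.62, 14.47 and 14.59 in wild types 1 to 4, and a log2 ratio of -0.07 ± 0.14 (SD, n = 4 pairs; limma, adjusted p = 0.939). For both genes 3 of 4 mutants lay below their partners and mutant 2 above its own. The 95% interval was 0.78-fold to 1.19-fold for Sod1 and 0.79-fold to 1.16-fold for Sod2.

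**Figure D2:**
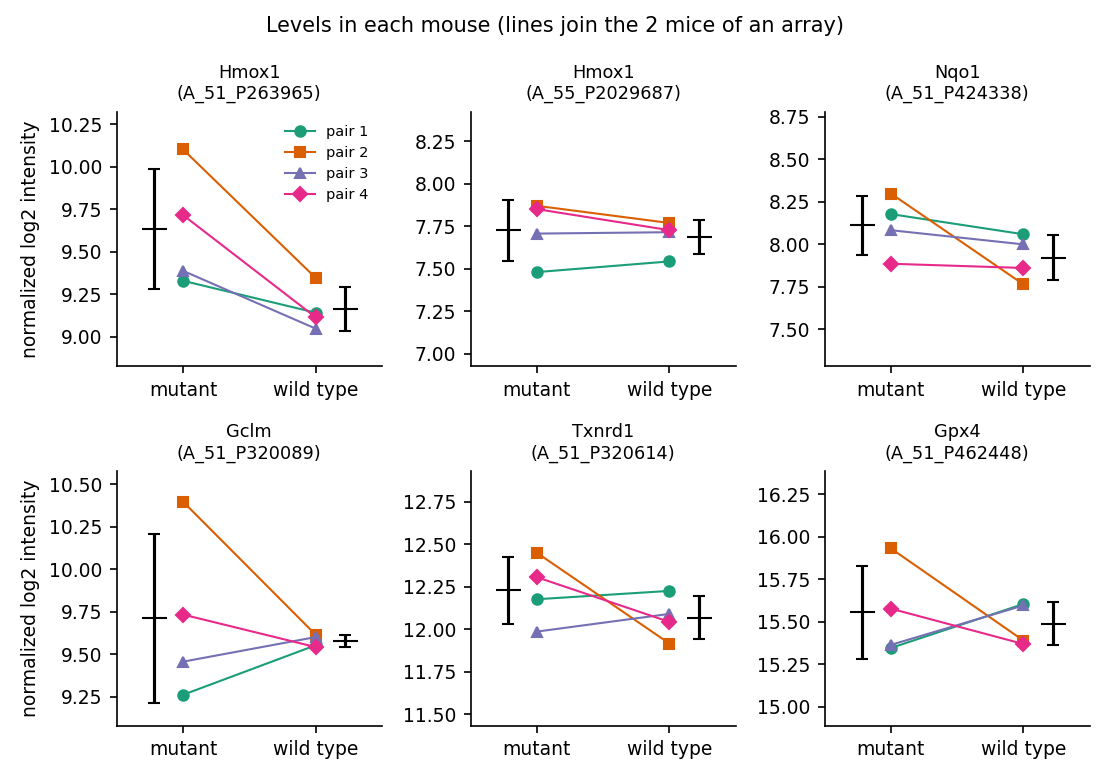
Normalized log2 intensity (vertical axis) of both Hmox1 probes and the Nqo1, Gclm, Txnrd1 and Gpx4 probes in 4 mutants and 4 wild types. Each panel shows 1 probe, with lines joining the mice of 1 pair. Mutant 2 is the highest of the 8 mice in every panel, and the brighter Hmox1 probe is higher in each mutant than in its wild-type partner.

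Among the members, pair 2 set most of the spread. The median log2 ratio of the 10 genes was -0.08, 0.48, -0.07 and -0.01 in pairs 1 to 4, while over all tested genes it was 0.02, -0.01, -0.03 and 0.01. In pair 2 lay the highest of the 4 ratios for 8 of the 12 probes, beside 30.7% of all tested probes. Mutant 2 was the highest of the 8 mice for 9 of the 12 probes, all but Gclc and both Gsr probes, beside 20.1% of all tested probes. The median of the members' fitted log2 ratios turned to -0.01 without pair 2. It also turned to -0.01 with each array centred on its median in place of the loess fit. That centring moved the median of all probes to -0.04.

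Cell type markers also differed between the mice of pair 2. The oligodendrocyte list (Mbp, Mog, Mag, Mobp, Cnp) had a mean level of 13.49, 14.63, 12.79 and 13.25 in mutants 1 to 4, against 13.94, 13.02, 13.54 and 13.43 in wild types 1 to 4, so mutant 2 was the highest of the 8. Its median log2 ratio was -0.44, 1.67, -0.91 and -0.18 in pairs 1 to 4. For other lists wild type 2 was the mouse at the extreme. Its mean level was the lowest of the 8 for astrocytes, choroid plexus, endothelium and cerebellum and the highest for neurons. The blood markers were highest in mutant 2, at a mean level of 14.15 against 13.67 in wild type 2. The choroid plexus list had a median log2 ratio of 0.25, 1.34, -0.75 and -0.83 in pairs 1 to 4. In pair 2 the endothelium list stood at 0.61, the astrocyte list at 0.31 and the neuron list at -0.40. The part of these differences in the antioxidant ratios was not tested. In bulk tissue, fewer cells of a type and less RNA per cell cannot be told apart.

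Gclm, Txnrd1, Gpx4 and both Hmox1 probes had lower ratios in both pairs with the mutant in Cy5 than in both pairs with it in Cy3. That is 5 of 12 probes, beside 23.3% of all tested probes. The opposite order held for the 2 Gsr probes, beside 26% of all tested probes. The astrocyte, oligodendrocyte, endothelium, ependyma, blood, liver and cerebellum lists had lower median ratios in pairs 1 and 3 than in pairs 2 and 4. The opposite order held for the neuron, striatum and skeletal muscle lists. The striatum list stood at 1.24, -0.47, 0.34 and -1.15 in pairs 1 to 4. In levels rather than ratios, the cerebellum markers split the mice by number. Mean levels were 13.69, 10.56, 14.20 and 12.13 in mutants 1 to 4 and 13.08, 9.73, 13.50 and 10.26 in wild types 1 to 4. Mice 1 and 3 of both genotypes were thus above mice 2 and 4, in whichever dye they were labelled. The cerebellum list was also higher in the mutant of every pair, with a median log2 ratio of 0.63, 0.82, 0.78 and 1.13 in pairs 1 to 4. Nqo1 and the brighter Hmox1 probe were likewise higher in the mutant of every pair. Among the mutants, that Hmox1 probe was lower in mice 1 and 3 than in mice 2 and 4, the reverse of the cerebellum list. Among the wild types, mouse 2 was the highest for that probe and the lowest for the list. Nqo1 had the list's order, mice 1 and 3 above mice 2 and 4, in the wild types but not in the mutants. The part of dye and of these markers in the antioxidant ratios was not tested.

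**Figure D3:**
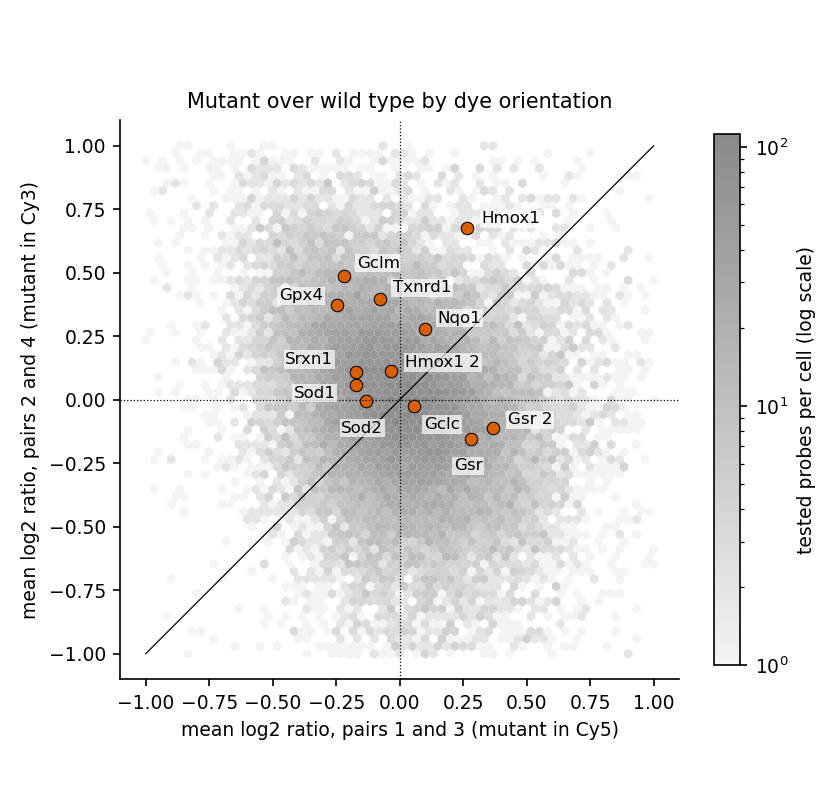
Mean log2 ratio of mutant over wild type in pairs 1 and 3 (horizontal axis) against pairs 2 and 4 (vertical axis) for all tested probes (grey) and the 12 antioxidant probes (labelled; a 2 after the name marks the second probe). Gclm and Gpx4 lie above 0 on the vertical axis and below 0 on the horizontal one, Gsr lies on the opposite side, and Hmox1 lies above 0 on both; 977 probes fall outside the axes.

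Taking all 12 probes, 2 were higher in the mutant in all 4 pairs, Nqo1 and the brighter Hmox1 probe, beside 6.05% of all tested probes. None was lower in all 4 pairs, beside 5.75%. None had levels without overlap between the genotypes, beside 1.02%. No test of these shares was made.

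The ratio did not differ detectably between the sexes. A sex term in limma gave 0 of 12 probes at an adjusted p under 0.05 (0% of all tested probes) and 0 at an unadjusted p under 0.05 (2.78% of all tested probes). The largest difference was that of Srxn1, whose male minus female log2 ratio was -0.38. With 2 pairs of each sex this fit left 1 residual degree of freedom.

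The wider pathway was followed in 9 lists of 136 genes, the 10 members included, of which 133 were tested. None passed the test in either direction. At an unadjusted p under 0.05 in limma stood 7, or 5.26%, beside 6.05% of all tested probes, and 19 genes, or 14.3%, had the same sign in all 4 pairs, beside 11.8%. The median log2 ratio was 0.01 over all lists, and no list had a median beyond 0.08 on either side of 0.

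In glutathione synthesis and turnover, 15 of 20 genes had a mean ratio above 0, beside 51.8% of all tested genes, with a list median of 0.08. By pair that median was -0.00429, 0.35, -0.02 and 0.12 in pairs 1 to 4, so it was above 0 in pairs 2 and 4 only. Chac1, which encodes an enzyme that degrades glutathione, had the highest ratio of the 133 genes. Its levels were 12.52, 13.04, 12.72 and 13.01 in mutants 1 to 4, against 11.10, 11.44, 11.15 and 11.46 in wild types 1 to 4. The groups did not overlap, and the log2 ratios of 1.43, 1.60, 1.57 and 1.54 averaged 1.54 ± 0.08 (SD, n = 4 pairs), or 2.90-fold, with an adjusted p of 0.0902 in limma. The threshold was passed in 5 of 14 other settings, among them 0.0494 without replicate 2 and 0.0151 without replicate 4, while the adjusted p was 0.893 without replicate 1 and 1.00 without replicate 3. The fit without replicate 4 called 934 of the 33300 tested probes, and the fit without replicate 2 called 13. As given above, the cerebellum markers were also higher in the mutant of every pair. Within each genotype, however, Chac1 was lower in mice 1 and 3 than in mice 2 and 4. The cerebellum list had the reverse order. The part of these markers in the Chac1 ratio was not tested.

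Slc7a11 and Slc3a2 encode the light and heavy chains of the cystine transporter that feeds glutathione synthesis. Slc7a11, which NRF2 and ATF4 both induce, had log2 ratios of 0.30, -0.73, 0.08 and 0.32 in pairs 1 to 4. Its mean was -0.01 ± 0.49 (SD, n = 4 pairs; limma, adjusted p = 0.996), and its fitted log2 ratio was 0.25 without pair 2. Slc3a2, which also serves other amino acid transporters, had log2 ratios of 0.34, 0.53, 0.26 and 0.80 and a mean of 0.48 ± 0.24 (limma, adjusted p = 0.720).

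The promoters of Chac1 and Slc7a11 are shown because both are known targets of ATF4, a transcription factor of the amino acid response, and gave different values here. The letters TGATGNAA, a core of the C/EBP-ATF response element, were searched on both strands. They were in 4.5% of genes with a promoter and in 0 of the 7 antioxidant genes that had one.
Chac1, chr2:119351019-119351086, plus strand, match 193 bases before the start: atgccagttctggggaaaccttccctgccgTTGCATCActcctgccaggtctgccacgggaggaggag
Slc7a11, chr3:50443623-50443709, minus strand, matches 66 and 47 bases before the start: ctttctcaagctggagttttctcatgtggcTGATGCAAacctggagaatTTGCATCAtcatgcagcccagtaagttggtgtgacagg
Both promoters held the motif, and the mean log2 ratio was 1.54 for Chac1 and -0.01 for Slc7a11.

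The regulators of NRF2 had a list median of -0.05, with 10 of 16 genes below 0. Nfe2l2 itself had log2 ratios of 0.15, 0.45, -0.04 and 0.10 in pairs 1 to 4, a mean of 0.16 ± 0.21 (SD; limma, adjusted p = 0.866). Keap1 had a lower level in each mutant than in its partner, with a mean of -0.19 ± 0.13 (SD; limma, adjusted p = 0.846). The same held for Dpp3, a peptidase that binds KEAP1, at -0.22, and for Maff, a small MAF partner, at -0.22. The Maff probe was well above background in 2 of 4 mutants and 4 of 4 wild types, and its log2 ratio was -0.69 when fitted on the authors' deposited values and -0.66 on the scanner software's. None of the 3 passed the test.

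The thioredoxin and peroxiredoxin list had a median of 0.05. Sesn2, encoding sestrin 2, a stress-induced inhibitor of mTORC1 signalling, had levels of 11.83, 11.95, 12.15 and 11.78 in mutants 1 to 4, against 11.37, 11.41, 11.37 and 11.25 in wild types 1 to 4. The groups did not overlap, and its log2 ratio of 0.57 ± 0.14 (SD, n = 4 pairs) or 1.49-fold had an adjusted p of 0.634 in limma. Like Chac1, it was higher in the mutant of every pair, as were the cerebellum markers. The peroxiredoxins, which remove hydrogen peroxide and depend on the thioredoxin system, lay closer to 0, at 0.13 for Prdx1, 0.05 for Prdx2 and 0.01 for Prdx6. The glutaredoxin Glrx3, listed with glutathione turnover, had a log2 ratio of 0.20, and its fitted log2 ratio was 0.12 without pair 2.

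Glutathione peroxidases and transferases had a median of 0.03, with 13 of 24 tested genes above 0. Mgst1, a membrane-bound glutathione transferase, had log2 ratios of 0.12, 1.28, 0.30 and 0.19 in pairs 1 to 4. Its mean of 0.47 ± 0.54 (SD; limma, adjusted p = 0.811) rested on pair 2, and its fitted log2 ratio was 0.20 without that pair. Without replicate 4 its adjusted p in limma was 0.0450, in a fit that called 934 of the 33300 tested probes. Gstt1, another transferase, had a mean of 0.24 and Gpx2, a glutathione peroxidase best known from gut epithelium, one of -0.22.

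All 5 genes of the superoxide dismutase and catalase list had a mean ratio below 0, between -0.16 for Sod3, the extracellular enzyme, and -0.06 for Sod1. None passed the test, none had the same sign in all 4 pairs, and the list's median was above 0 in pair 2. Haem and iron handling genes had a median of 0.01, with Hmox1 at 0.47 and the iron exporter Slc40a1 at 0.21. Genes of NADPH supply had a median of 0.03, with the mitochondrial NAD kinase Nadk2 at 0.28, and the other NRF2 targets 0.01, with the epoxide hydrolase Ephx1 at 0.20. Without pair 2 the fitted log2 ratio was 0.17 for Nadk2, 0.06 for Ephx1 and 0.13 for Slc40a1.

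The selenoprotein list was included because Gpx4 and Txnrd1 carry selenocysteine, and had a median of 0.04. Dio2, the deiodinase that activates thyroid hormone in glia, had log2 ratios of -0.08, -1.70, -0.20 and -0.72 in pairs 1 to 4, a mean of -0.68 ± 0.74 (SD; limma, adjusted p = 0.747). Its fitted log2 ratio was -0.43 without pair 2. Without replicate 4 its adjusted p in limma was 0.0296, in a fit that called 934 of the 33300 tested probes. Selenom, an endoplasmic reticulum selenoprotein, had a mean of 0.42 ± 0.32 (SD; limma, adjusted p = 0.764), and Sephs1, related to selenophosphate synthetase, one of 0.28 ± 0.09 (SD; limma, adjusted p = 0.811). Selenom was higher in the mutant of every pair, as was the cerebellum list. Its levels also had that list's order, with mice 1 and 3 above mice 2 and 4 in each genotype. The part of the cerebellum markers in the Selenom ratio was not tested.

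**Figure D4:**
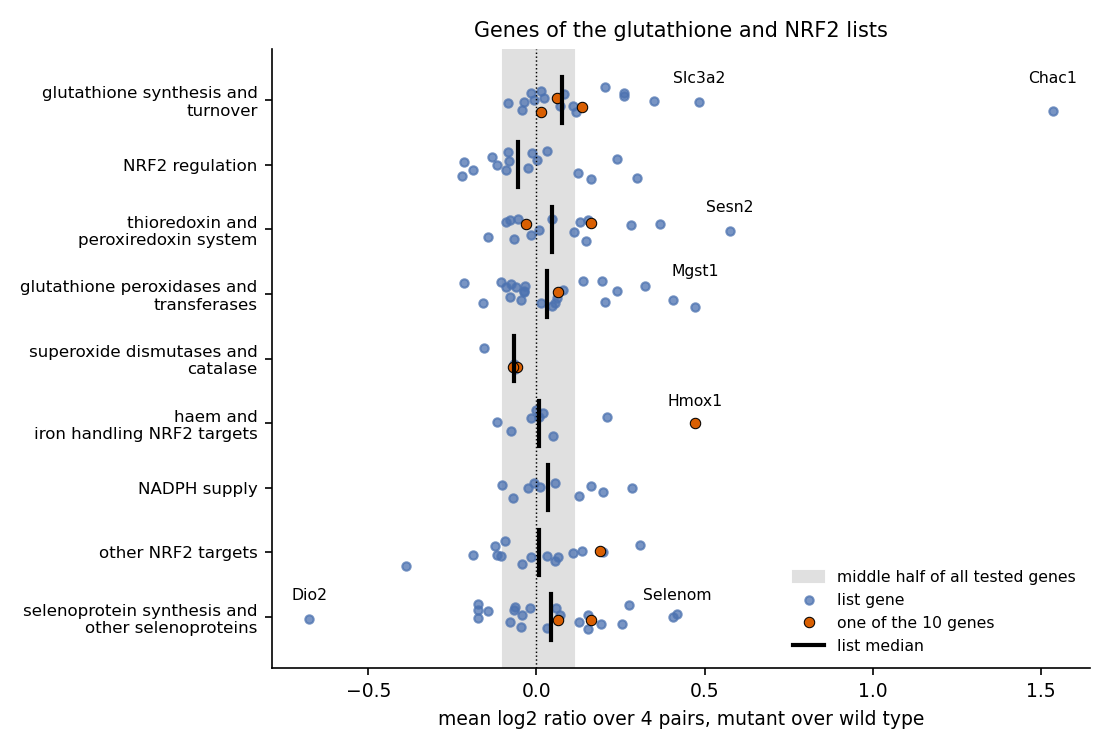
Mean log2 ratio of mutant over wild type (horizontal axis) for each tested gene of the 9 antioxidant pathway lists (rows), with the list median as a bar. The medians lie between -0.07 and 0.08, and Chac1 at 1.54 and Dio2 at -0.68 are the farthest points to either side.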

How the data were processed

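RNA of 4 mutant and 4 wild-type mouse brains was measured on 4 two-colour Agilent arrays of 1 slide. Agilent Feature Extraction 10.7.3.1 read the scans, per the submitters' processing notes. The intensity values deposited by the authors are median spot and local background brightness per channel, uncorrected, per the file headers. The processed intensity was background-subtracted and dye-normalized, per the file headers, and the deposited log10 ratio is Cy5 over Cy3 of it. Saturation, outlier status and signal well above background are deposited as marks of 0 or 1 (other values), per the file headers. The log2 values that the authors also deposited for the 8 mice have no stated scale; over 27624 bright probes they followed the processed signal after quantile normalization, minus each probe's median, with r above 0.999. Column medians were -0.0271, 0.0199, -0.0142 and -0.00238 in mutants 1 to 4 and -0.0496, 0.0364, -0.00529 and 0.0345 in wild types 1 to 4. Dim probes were not compared, so for them the scale is unknown. Median spot intensity was used where a mean had been planned.

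Spots were corrected with normexp (offset 50, which draws ratios of dim spots toward 0) and loess-normalized within each array. Outlier spots were left out and spots of a probe averaged; levels were taken after Aquantile normalization. Probes well above background in at least 3 of 4 mice of either genotype were tested, 33300 in all. Names came by accession from RefSeq annotation (GRCm38.p6), which named 27509 of 55681 probes. The brightest tested probe stands for a gene. The model, run in limma 3.58.1 with R 4.3.3 and version 1.17.8 of data.table, had genotype and dye terms, and p-values were adjusted by Benjamini-Hochberg over all tested probes. The script was tested on simulated data.

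Same-numbered mice shared an array and deviated together from their genotype means (r = 0.791, 0.314, 0.494 and 0.740 for pairs 1 to 4), and the within-array ratio keeps the pair as a block; mice 2 correlated more with another number, at 0.427. The labels name each mouse as a separate individual. Alternatives were other background, centring, filter, dye, sex and block choices and each pair left out. With a pair left out the dye term was kept, so the fitted log2 ratio weighs both dye orientations equally. It is not the plain mean of the remaining pairs. Genes were named as follows: all members, Pus1, Chac1 and Slc7a11, and per list the genes past the test and up to 3 with the largest mean ratio of 1 sign in all pairs. Nfe2l2, Sod3, Prdx1, Prdx2 and Prdx6 were added afterwards for their roles. One gene of the planned oligodendrocyte list is not reported here, and the list's values were computed without it. The members and lists were chosen with earlier results of these data known.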

Additional observations from a re-analysis of the deposited data

Results flagged for a closer look

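One value among the antioxidant genes lay far from the others of its group. In the wild types, the Srxn1 level of mouse 4 was 13.58, while the other 3 lay between 13.34 and 13.36 (normalized log2 intensity). The gap to the nearest wild type was 0.938 of the group's whole range, above Dixon's 95% critical value for 4 samples. Of 36 groups of 4 values examined this way it was the 1 to exceed that value, and chance alone gives about 1 in 20.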

How the results depend on the processing

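None of the 12 antioxidant probes had an adjusted p under 0.05 in limma under any of 14 alternatives, and 1 of the 12 (2 without replicate 4) had an unadjusted p under 0.05. The sign of the fitted log2 ratio, never called, changed under at least 1 alternative for 6 of the 10 genes (Gclc, Gclm, Gsr, Srxn1, Gpx4 and Sod1). It changed for none of Nqo1, Hmox1, Txnrd1 and Sod2. The member median lay between -0.01 and 0.14, and that of the pathway lists between -0.05 and 0.06. The count of all tested probes called, 3, became 0 with the scanner software's ratio, with the authors' deposited table and with a sex term added, 1 with separate channels and no replicate block, 10 with the array as a random replicate block (consensus correlation 0.614), and 0 to 934 with 1 replicate left out. The 934 came without replicate 4 and 13 without replicate 2. The cause was not tested. Pus1 lost its call with the scanner software's ratio (-3.82, limma adjusted p = 0.199), the authors' table (-3.83, 0.0822), no replicate block (0.0587), a sex term (0.106) and without replicate 1 (0.893) or 3 (1.00). The probes for Nqo1 and Maff and Hmox1's second probe were dim, and normexp draws ratios of dim spots toward 0. With the scanner software's ratio in place of it, Maff went from -0.22 to -0.66. Nqo1 went from 0.19 to 0.24 and Hmox1's second probe from 0.04 to 0.06. The number of arrays limits every interval given.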

Other observations

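The genes whose levels over the 8 mice most resembled those of the antioxidant genes were found by Pearson correlation among 15282 other genes, as a description. All levels share arrays, sections and normalization, and with 8 mice and so many genes high values arise readily. The closest were Prdx2 for Gpx4 (r = 0.98), Lamp1 for Nqo1 (r = 0.97), Dtd2 for Hmox1 (r = 0.97), Adra2a for Gclm (r = 0.99), Cemip for Gsr (r = 0.99), Ucp3 for Txnrd1 (r = 0.99), Slc22a7 for Srxn1 (r = 0.99), Impa2 for Sod1 (r = 0.98), Ccdc88a for Sod2 (r = 0.96) and D5Ertd579e for Gclc (r = 0.92).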
